A study of Homo sapiens with 6 samples.

Results

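The genes described here are transcription factors that set or hold cell identity: the protein-coding HOX, FOX, SOX, GATA, NKX, PAX, LHX and IRX genes, picked by symbol from the array's gene annotation. They number 130 of the 14812 named genes on the arrays, with 27 HOX, 44 FOX, 19 SOX, 6 GATA, 12 NKX, 8 PAX, 8 LHX and 6 IRX genes. The symbol pattern also takes FOXL2NB, a neighbour of FOXL2 that encodes no forkhead protein. Each gene is represented by the brightest of its probesets. Genes of these families outside the 130 are not analysed here.

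The cells were C4-2, an established human prostate cancer line derived from LNCaP, cultured in medium containing hormones. RNA was hybridised to 6 Affymetrix Human Gene 2.0 ST arrays, 2 biological replicates for each of 3 groups. The control cultures carry the label DMSO, the NU7441 cultures received that small-molecule inhibitor of the kinase DNA-PKcs at 1 µM for 24 h, and the knockdown cultures were transfected with an siRNA pool against PRKDC, the gene of DNA-PKcs, for 96 h. The protocol also names a control siRNA pool without saying which arrays received it. The knockdown is therefore compared with the DMSO-labelled cultures, so that transfection and treatment length differ between those groups along with the siRNA target and cannot be told apart from it. PRKDC itself is not analysed here.

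HOX proteins are homeodomain factors encoded in chromosomal clusters, and in adult tissue they keep a record of position along the body axis. FOX proteins bind DNA through a forkhead domain, and some of them open closed chromatin for other factors. SOX proteins bend DNA through an HMG box and often act in pairs with homeodomain or POU partners. In luminal prostate cells the androgen receptor binds many of its sites together with FOXA1, HOXB13 and GATA2, while SOX2 and NKX2-1 are better known from stem, neural and lung cells.

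The values are linear intensities that no array takes below 16. Intensities of different probesets are not comparable as transcript levels, and only values of the same gene are set against each other across arrays. Over all probesets the median intensity was 31.5 to 31.6 on the control arrays, 24.6 to 26.0 on the NU7441 arrays and 27.6 to 28.4 on the knockdown arrays, while the 95th percentiles ranged from 289 to 299 over the 6 arrays. The NU7441 arrays thus read lower for dim probesets, and not for bright ones. The replicate arrays correlated over the lineage genes at 0.985 in control, 0.894 in NU7441 and 0.952 in knockdown, on log2 values. Of the luminal marker list 6 of 9 genes were measured, with a summed intensity of 2231 to 2327 in control, 2638 to 2793 in NU7441 and 2180 to 2208 in knockdown. The higher sum in NU7441 came mainly from KLK3, at 792.6 and 725.9 in control and 1212.6 and 968.8 in NU7441, and from FOXA1 and HOXB13, which are lineage genes themselves, while the mean intensities of KLK2 and KRT18 were lower. The 4 basal markers measured of 6 summed to 89 to 132 on the 6 arrays, the 3 stromal of 7 to 79 to 146, the 4 endothelial of 7 to 73 to 141, and the 4 leukocyte of 7 to 191 to 231, of which CD68 accounted for 114.6 to 159.6. Because whole cultures were measured, fewer cells expressing a gene and less RNA of it per cell cannot be told apart.

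Most of the 130 genes gave little signal. On all 6 arrays 85 of them stayed under 50, and only 15 read above 100 on both control arrays: FOXA1, FOXE3, FOXJ3, FOXM1, FOXN3, GATA2, HOXB13, HOXC4, HOXD1, IRX3, IRX4, NKX2-1, SOX12, SOX2 and SOX4. NKX2-1 and SOX12 did so by their brightest probesets only. Their second probesets read 64.7 and 53.3, and 63.3 and 55.3, in control. By mean log2 intensity 39 lineage genes lay above the median of all named genes, which corresponds to an intensity of 38.2, and 91 lay below it. The LHX genes were dim as a family, with no value above 55.6 on any array, and no PAX gene exceeded 95.5.

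After NU7441, 47 of the 130 lineage genes passed the test, an adjusted p below 0.05 in limma over all named genes, and 39 of them were lower. On the deposited scale SOX2 fell 7.26-fold, HOXD1 7.33-fold, NKX2-1 (by its brightest probeset) 4.59-fold, FOXE3 4.31-fold, HOXD10 3.94-fold and HOXB8 3.24-fold. HOXD1, HOXD10 and HOXB8 read near the floor after NU7441, so the size of their falls depends on how the floor is treated: with it removed their log2 fold changes were -4.53, -3.61 and -3.66, against -2.87, -1.98 and -1.70 on the deposited scale. The 8 that rose were 6 forkhead genes, FOXD4L6 (by its brightest probeset only), FOXN3, FOXJ3, FOXK1, FOXD4 and FOXA1, with HOXC4 and HOXC11. Of all genes 22.4% were lower and 10.8% higher, so the 39 lower lineage genes are somewhat more, and the 8 higher ones somewhat fewer, than those shares of 130 would give. The lineage genes' median log2 fold change was -0.40 beside -0.23 over all genes.

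That direction depended on brightness and on scaling. Among the 39 brighter lineage genes 7 rose and 9 fell, where 20.7% and 24.0% of all brighter genes did so, and their median log2 fold change was 0.08 beside -0.05. Among the 91 dimmer ones 1 rose and 30 fell, where 0.972% and 20.7% of all dimmer genes did so, with a median of -0.45 beside -0.30. After quantile normalization, which gives all arrays 1 distribution and moves the median of all genes to 0.01, 15 lineage genes were higher and 15 lower, beside 14.3% higher and 13.8% lower over all genes. Centring each array on its median gave 19 higher and 14 lower, with a median of -0.08 beside 0.08 over all genes. The share of all genes called after centring was not taken. The calls held under the deposited scale, both of these scalings and removal of the floor for 14 lower genes, namely FOXE3, FOXF2, FOXM1, GATA5, HOXB8, HOXD1, HOXD10, HOXD11, NKX2-1, NKX2-3, PAX1, PAX3, PAX5 and SOX2. They held for 6 higher genes, FOXA1, FOXD4, FOXD4L6, FOXJ3, FOXK1 and FOXN3. The share of all genes whose calls held in all 4 settings was not taken. The calls of NKX2-1 and FOXD4L6 rest on their brightest probesets and were lost with the second (adjusted p = 0.105 and 0.891). Of the other 25 genes lower on the deposited scale, 23 lay below the median intensity of named genes, where the median over all genes was itself below 0.

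**Figure D1:**
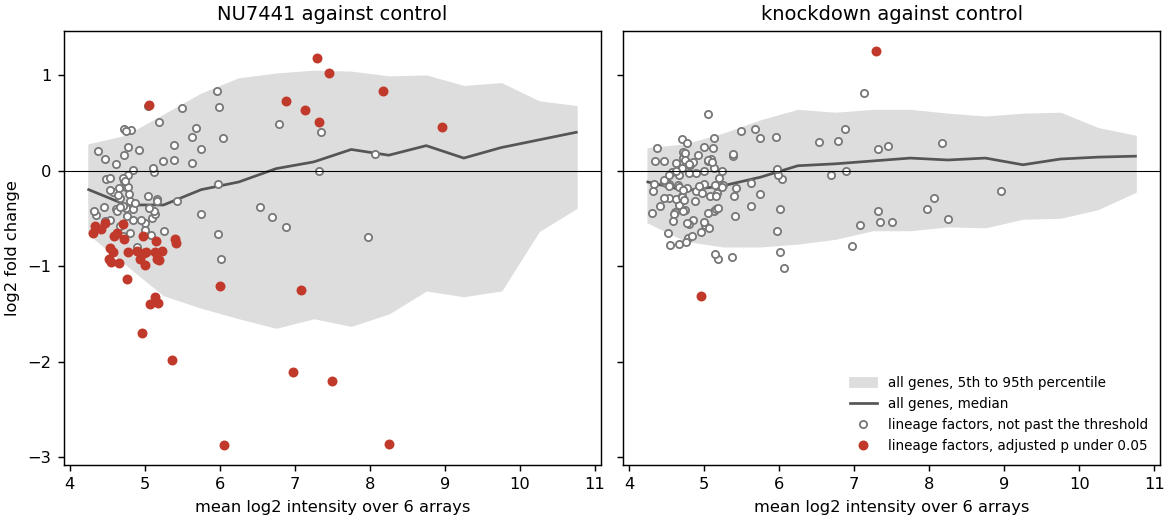
Log2 fold change of each lineage gene (points, red where the adjusted p is under 0.05) against its mean log2 intensity over 6 arrays, for NU7441 (left) and knockdown (right), with the median (line) and the 5th to 95th percentile (band) of all genes in bins of intensity. The median of all genes after NU7441 is -0.36 in the bins around log2 5, and SOX2, HOXD1, NKX2-1, FOXE3, HOXD10 and HOXB8 are among the genes below the band.

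**Figure D2:**
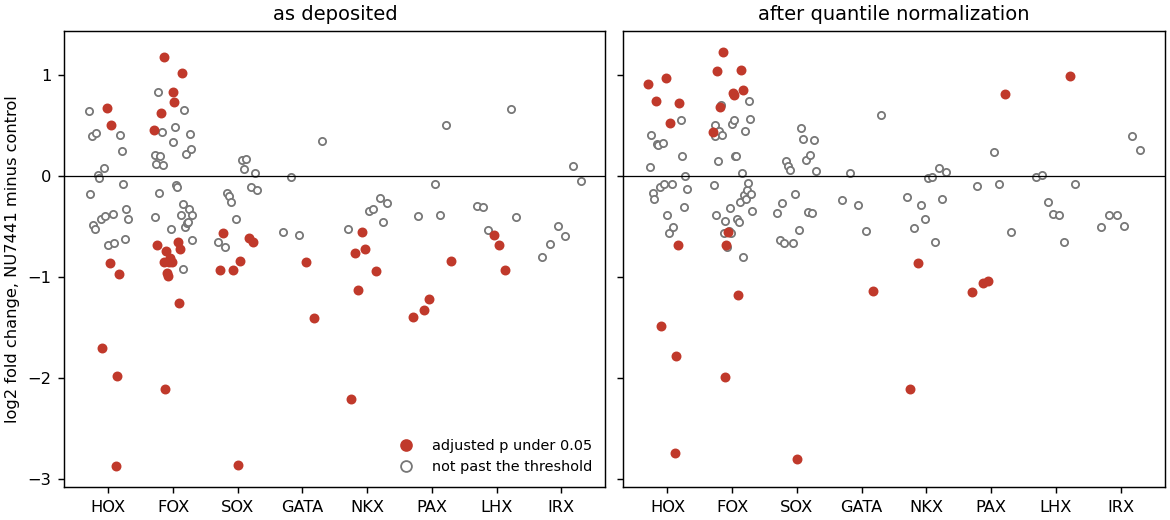
Log2 fold change of each gene after NU7441 by family, on the deposited scale (left) and after quantile normalization (right); each point is 1 gene, red where the adjusted p is under 0.05. The called genes number 8 higher and 39 lower on the left and 15 and 15 on the right.

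SOX2, a pluripotency and neural progenitor factor, had the lowest adjusted p of the 130 genes after NU7441. Its intensity was 697.5 and 632.7 on the control arrays, 111.3 and 75.3 after NU7441, and 498.7 and 434.7 after knockdown. The NU7441 arrays were far below the others, and the knockdown arrays lay below control without overlap. The log2 fold change after NU7441 was -2.86 ± 0.19 (SE, n = 2 arrays per group; adjusted p = 0.000139), and after knockdown it was -0.51 ± 0.19 (adjusted p = 0.192), which did not pass. The knockdown arrays stood 2.35 ± 0.19 above the NU7441 arrays (log2; adjusted p = 0.000539).

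The rest of the SOX family was mostly dim. SOX7, SOX5, SOX11, SOX10, SOX17 and SOX21 were also lower after NU7441, from -0.56 for SOX11 to -0.93 for SOX10 and SOX17, and in each case the call was lost after quantile normalization. With SOX2 they make 7 of 19 SOX genes lower and 0 higher, beside 22.4% and 10.8% of all genes. The unadjusted p in limma was under 0.05 for 10 SOX genes. After quantile normalization 5.26% of the SOX genes were lower, beside 13.8% of all genes. SOX12, a group C factor, read 346.5 and 303.7 in control and 135.3 and 296.1 after NU7441, so the NU7441 arrays disagreed and the difference of -0.70 ± 0.30 did not pass (adjusted p = 0.101). SOX1 and SOX3, the nearest relatives of SOX2, gave -0.65 and 0.16 and did not pass.

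Of the 27 HOX genes 5 were lower and 2 higher after NU7441, 18.5% and 7.41%, which is no more than the 22.4% and 10.8% of all genes. HOXD1, an anterior member of the HOXD cluster, read 158.7 and 169.6 in control, 27.2 and 18.4 after NU7441, and 81.3 and 80.2 after knockdown. The groups did not overlap, and NU7441 brought the signal close to the floor. The log2 fold change was -2.87 ± 0.25 after NU7441 (adjusted p = 0.000339) and -1.02 ± 0.25 after knockdown (adjusted p = 0.0812), and knockdown stood 1.85 ± 0.25 above NU7441 (adjusted p = 0.00479). HOXD10, a posterior factor of limb and spinal cord, read 74.0 and 86.9 in control, 19.6 and 21.1 after NU7441 and 46.1 and 40.3 after knockdown, in the same order of groups. Its log2 fold change after NU7441 was -1.98 ± 0.24 (adjusted p = 0.000984), and knockdown stood 1.08 ± 0.24 above NU7441 (adjusted p = 0.0271). HOXD11 fell from 33.1 and 35.6 to 16.9 and 18.3, near the floor. Its log2 fold change was -0.97 on the deposited scale and -2.97 with the floor removed.

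The other 6 measured HOXD genes, HOXD3, HOXD4, HOXD8, HOXD9, HOXD12 and HOXD13, read at most 42.8 on any array and did not pass after NU7441 on the deposited scale. HOXD1 and HOXD10 are thus separated within the cluster by genes with little signal, HOXD3, HOXD4, HOXD8 and HOXD9. In the HOXB cluster 1 of 10 genes passed after NU7441: HOXB8, which read 60.8 and 63.6 in control, 21.5 and 17.1 after NU7441, and 25.3 and 24.8 after knockdown. Both treatments lay far below control, with log2 fold changes of -1.70 ± 0.22 (adjusted p = 0.00131) for NU7441 and -1.31 ± 0.22 (adjusted p = 0.0437) for knockdown. Its neighbours HOXB7 and HOXB9 gave -0.42 and 0.08 and did not pass. In the HOXC cluster HOXC13 was lower (-0.86) and HOXC4 (0.51) and HOXC11 (0.68) were higher, and the call for HOXC13 was lost after quantile normalization. HOXA2, the only HOXA gene measured, gave 0.65 (adjusted p = 0.127).

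The promoters of SOX2, HOXD1, HOXD10 and FOXA1 are shown because the first 3 fell together after NU7441 while FOXA1 rose. The RefSeq promoter table on GRCh38.p14 held 84 of the 130 genes, and each run gives the 250 bases before the start site, 5′ to 3′ on the gene's strand. Capitals mark matches, on either strand, to the motifs searched: the forkhead motif GTAAACA, the CCAAT box, the cell cycle element TTTGAA, the GC box GGGCGG and the E-box CACGTG.
SOX2, chr3:181711675-181711924, forward strand: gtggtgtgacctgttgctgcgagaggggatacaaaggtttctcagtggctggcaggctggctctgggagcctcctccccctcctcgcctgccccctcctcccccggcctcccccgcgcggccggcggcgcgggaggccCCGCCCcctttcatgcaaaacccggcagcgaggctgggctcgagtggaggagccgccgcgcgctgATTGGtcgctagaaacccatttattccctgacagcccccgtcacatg
HOXD1, chr2:176188418-176188667, forward strand: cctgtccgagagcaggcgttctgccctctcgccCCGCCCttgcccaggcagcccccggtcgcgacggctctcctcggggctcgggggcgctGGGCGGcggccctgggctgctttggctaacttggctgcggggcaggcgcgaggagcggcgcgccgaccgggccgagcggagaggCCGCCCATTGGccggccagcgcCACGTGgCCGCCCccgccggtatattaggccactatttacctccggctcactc
HOXD10, chr2:176116528-176116777, forward strand: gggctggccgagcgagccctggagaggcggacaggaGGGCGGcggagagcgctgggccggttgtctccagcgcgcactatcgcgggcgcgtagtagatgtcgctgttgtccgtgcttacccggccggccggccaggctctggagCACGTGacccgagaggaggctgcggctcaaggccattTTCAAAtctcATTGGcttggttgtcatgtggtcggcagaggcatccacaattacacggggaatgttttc
FOXA1, chr14:37595250-37595499, reverse strand: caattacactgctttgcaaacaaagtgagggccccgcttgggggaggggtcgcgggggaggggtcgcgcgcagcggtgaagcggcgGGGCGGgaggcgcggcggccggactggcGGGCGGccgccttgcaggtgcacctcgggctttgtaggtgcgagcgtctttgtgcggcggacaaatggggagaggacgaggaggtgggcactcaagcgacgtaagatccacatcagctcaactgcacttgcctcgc
A CCAAT box lay in the windows of SOX2, HOXD1 and HOXD10 and not in that of FOXA1, and it was in 11240 of all 35116 promoters and in 34 of the 84. In HOXD1 it directly adjoins a GC box. GC boxes were present in all 4 windows, in 42.6% of all promoters and in 60.7% of the lineage genes'. The E-box, found in HOXD1 and HOXD10, was in 6.3% and 10.7%, and the cell cycle element, found in HOXD10, in 13.3% and 14.3%. The forkhead motif, searched only as the exact sequence GTAAACA, was in none of the 4 windows. It was in 3.0% of all promoters and in 2.4% of the lineage genes', and looser matches were not counted. The lineage promoters were rich in CpG, with a median of 20.5 per window against 11 over all promoters.

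**Figure D3:**
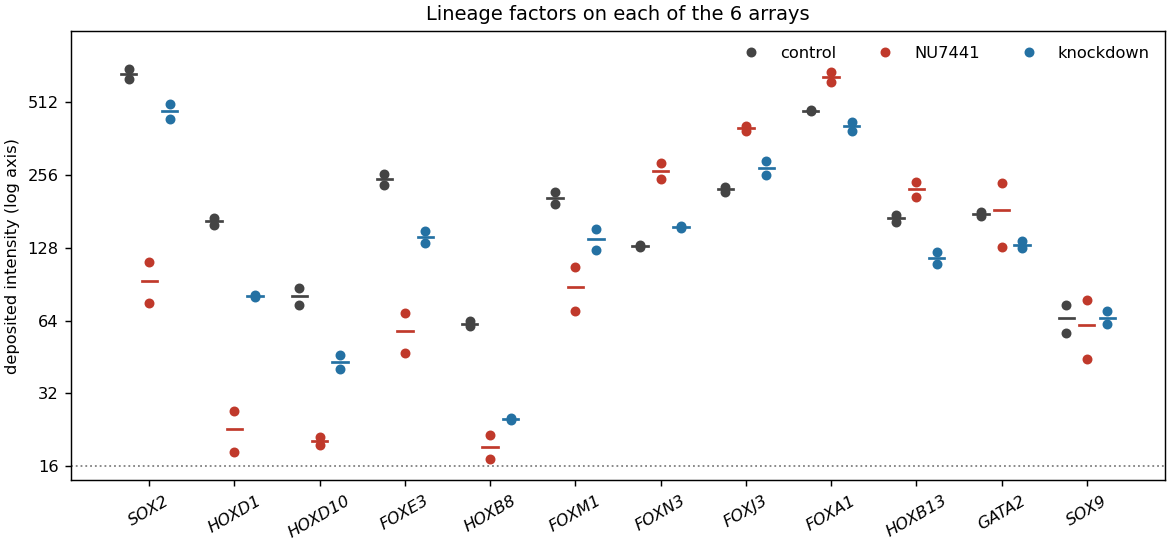
Deposited intensity (log axis) of 12 lineage genes on each array; points are arrays, short bars group means, and the dotted line the lowest deposited value of 16. SOX2, HOXD1, HOXD10, FOXE3 and FOXM1 order as control, knockdown, NU7441, and FOXN3 and FOXJ3 are highest after NU7441.

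Of the 7 measured prostate lineage factors 1 rose and 0 fell after NU7441, close to the 10.8% and 22.4% of all genes for so short a list. After knockdown 0 passed in limma, and 3 and 2 had an unadjusted p under 0.05 after NU7441 and knockdown. FOXA1, the forkhead factor that opens chromatin for the androgen receptor, read 470.1 and 471.3 in control, 619.8 and 680.9 after NU7441, and 389.1 and 423.0 after knockdown. NU7441 arrays were the highest and knockdown arrays the lowest, with no overlap. FOXA1 rose by 0.46 ± 0.11 on the log2 scale after NU7441 (adjusted p = 0.0146), was -0.21 ± 0.11 after knockdown (adjusted p = 0.331), and was 0.68 lower in knockdown than in NU7441 (log2 difference -0.68 ± 0.11, adjusted p = 0.0103).

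HOXB13, the posterior HOX factor of the prostate, had the same order of groups. It read 162.8 and 174.8 in control, 239.4 and 206.6 after NU7441, and 122.5 and 109.8 after knockdown. On the deposited scale neither treatment passed against control, with 0.40 ± 0.17 for NU7441 (adjusted p = 0.105) and -0.54 ± 0.17 for knockdown (adjusted p = 0.143). The treatments differed by -0.94 ± 0.17 (adjusted p = 0.0146). After NU7441 HOXB13 passed as higher with median centring (0.72, adjusted p = 0.015), and not with quantile normalization (0.41, adjusted p = 0.115). GATA2, another androgen receptor partner, read 179.3 and 173.0 in control, 129.1 and 236.8 after NU7441, and 135.8 and 127.3 after knockdown. Its NU7441 arrays lay on either side of control, and without replicate 1 of NU7441 the log2 difference moved from -0.01 to 0.43. SOX4 (0.17), SOX9 (-0.14), FOXP1 (0.22) and GATA3 (-0.58) did not pass after NU7441 either. GATA3 stayed below 38 on all 6 arrays, and the FOXP1 arrays after NU7441 read 32.8 and 92.1.

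Of 8 measured genes that the androgen receptor binds with FOXA1 and HOXB13 in luminal cells, out of 16 listed, 4 rose and 1 fell after NU7441, with a median of 0.40. The kallikrein KLK4 gave 1.35 ± 0.14 (adjusted p = 0.000564) and HERC3, a ubiquitin ligase, 1.04 ± 0.16 (adjusted p = 0.00215), whereas FKBP5, a steroid receptor chaperone, fell by 0.84 ± 0.15 (adjusted p = 0.00432). KLK2 gave -0.44 and did not pass. After knockdown 0 of the 8 passed in limma, with 2 at an unadjusted p under 0.05, and between the treatments 2 were lower in knockdown.

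Among the forkheads of cell cycle and signalling, FOXM1, which drives transcription in G2 and mitosis, fell while FOXN3, FOXJ3 and FOXK1 rose. FOXM1 read 216.6 and 194.4 in control, 70.2 and 106.0 after NU7441, and 153.1 and 125.5 after knockdown. The groups did not overlap, with log2 fold changes of -1.25 ± 0.23 after NU7441 (adjusted p = 0.00517) and -0.57 ± 0.23 after knockdown (adjusted p = 0.223). The difference of 0.68 ± 0.23 between the treatments did not pass (adjusted p = 0.0954). Of 12 measured FOXM1 target genes out of 14 listed, 11 fell after NU7441, beside 22.4% of all genes. Their median was -1.64, beside -0.23 over all genes. The lowest were the mitotic kinesin KIF20A (-2.41) and the kinase NEK2 (-2.29), and the exception was CKS1B (-0.24, adjusted p = 0.118). After knockdown 0 of the 12 passed in limma, with 5 at an unadjusted p under 0.05 and a median of -0.32. Between the treatments 10 were higher in knockdown than in NU7441, where 5.83% of all genes were.

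FOXN3, a repressor linked to the cell cycle checkpoint, read 131.3 and 128.8 in control, 245.7 and 284.6 after NU7441, and 157.1 and 153.9 after knockdown. It rose by 1.02 ± 0.17 after NU7441 (adjusted p = 0.00294) and was 0.26 ± 0.17 after knockdown (adjusted p = 0.424). FOXJ3 read 228.3 and 217.9 in control, 407.4 and 387.1 after NU7441, and 254.6 and 292.3 after knockdown, a rise of 0.83 ± 0.14 after NU7441 (adjusted p = 0.00357). FOXK1, a regulator of metabolism and autophagy genes, read 93.5 and 86.3 in control and 151.8 and 146.7 after NU7441, a rise of 0.73 ± 0.19 (adjusted p = 0.0172). In all 3 the NU7441 arrays lay above all control and knockdown arrays. The relatives FOXN2 (-0.38) and FOXK2 (0.49) did not pass.

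The FOXO factors, which insulin and AKT signalling keep out of the nucleus, had no call on the deposited scale. FOXO1 read 98.2 and 96.1 in control, 29.3 and 90.4 after NU7441, and 58.4 and 49.7 after knockdown, so the NU7441 arrays disagreed widely. FOXO3 gave 0.66 (adjusted p = 0.0584) and passed as higher after quantile normalization (0.85, adjusted p = 0.0298) and median centring (0.97, adjusted p = 0.0144), but this brightest probeset is numbered among probesets of another chromosome. Its second probeset gave -0.01 ± 0.31 (adjusted p = 0.991). FOXO4 gave -0.50 (adjusted p = 0.191). Of 11 measured FOXO target genes out of 18 listed, 9 rose after NU7441 and 0 fell, beside 10.8% and 22.4% of all genes. Their median was 0.85, beside -0.23 over all genes. The highest were the stress-induced SESN1 (1.26 ± 0.17, adjusted p = 0.00148) and KLHL24 (1.17 ± 0.22, adjusted p = 0.00546), and TXNIP (0.33) and FBXO32 (-0.55) did not pass. After knockdown 0 passed in limma, with 1 at an unadjusted p under 0.05. Between the treatments 6 were lower in knockdown than in NU7441, where 2.84% of all genes were.

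FOXE3, a forkhead factor of the eye lens, read 232.1 and 257.6 in control, 68.8 and 46.8 after NU7441, and 150.0 and 133.1 after knockdown. It fell by 2.11 ± 0.22 after NU7441 (adjusted p = 0.00064), was -0.79 ± 0.22 after knockdown (adjusted p = 0.107), and stood 1.32 ± 0.22 higher in knockdown than in NU7441 (adjusted p = 0.011). The groups did not overlap in any pair. Apart from FOXM1, the other forkhead symbols that fell read at most 57.7 on any array, and their changes lay between -0.99 for FOXH1, a partner of SMAD proteins, and -0.65 for FOXL2NB. Of these only FOXF2 (-0.96) kept its call under every scaling above.

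The list of endoderm, blood and mesoderm factors was dim in these cells. After NU7441 8 of its 12 measured genes fell and 0 rose, beside 22.4% and 10.8% of all genes. After quantile normalization 3 fell, beside 13.8% of all genes. GATA5, a heart and gut factor, read 51.1 and 55.4 in control, 17.4 and 23.3 after NU7441, and 39.3 and 31.5 after knockdown, a fall of 1.40 ± 0.25 after NU7441 (adjusted p = 0.00432). With the floor removed the GATA5 log2 fold change was -3.09. PAX3, a neural crest and muscle factor, read 57.3 and 59.6 in control, 22.4 and 24.5 after NU7441, and 31.6 and 32.4 after knockdown, a fall of 1.32 ± 0.22 (adjusted p = 0.00348). Both genes ran in the order control, knockdown, NU7441. PAX1 (-1.39), PAX5 (-1.21) and PAX9 (-0.84) also fell, so that 4 of 8 PAX genes were lower and 0 higher, beside 22.4% and 10.8% of all genes. PAX6 (-0.08) and PAX8 (0.51) did not pass, and PAX8 passed as higher after quantile normalization.

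Of the NKX genes 6 of 12 were lower and 0 higher, beside the same 22.4% and 10.8%, but 2 of the 6, NKX2-1 and NKX2-2, did not pass by their second probesets (adjusted p = 0.105 and 0.897). Of the 8 LHX genes LHX6, LHX5 and LHX4 were lower. GATA4 (-0.85), a partner of GATA5 in heart and gut, was lower, and GATA1 (-0.55) and GATA6 (0.35) did not pass. After quantile normalization 2 NKX genes, NKX2-1 and NKX2-3, remained lower and 0 LHX genes did. None of the 6 IRX genes passed in limma, with 3 at an unadjusted p under 0.05. IRX4 read 143.1 and 128.6 in control, 78.9 and 103.5 after NU7441, and 113.8 and 159.5 after knockdown, a difference of -0.59 ± 0.23 after NU7441 (adjusted p = 0.079).

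For 8 of the 130 genes the array carries 2 named probesets, and the brightest was not always numbered among probesets of the gene's own strand. The check took the 20 nearest-numbered named probesets with a strand in the RefSeq gene table. All 76 genes with 1 probeset and such a strand had more than 10 neighbours on their own strand, the lowest having 12. The brightest probeset of NKX2-1, NKX2-2, FOXD1 and FOXO3 had 0 and that of FOXD4L6 had 1, the FOXO3 probeset having none on its own chromosome, while their second probesets had 18 to 20. SOX12 gave 8 and 10. Which transcript these brightest probesets read was not tested, and their values may not be those of the named gene.

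NKX2-1, the lung, thyroid and forebrain factor, read 326.4 and 356.4 in control, 87.9 and 62.8 after NU7441, and 253.7 and 216.1 after knockdown by its brightest probeset. That is a fall of 2.20 ± 0.20 after NU7441 (adjusted p = 0.000409). By its second probeset it read 64.7 and 53.3 in control, 41.9 and 38.1 after NU7441, and 46.2 and 54.8 after knockdown, a difference of -0.55 ± 0.24 that did not pass (adjusted p = 0.105). FOXD4L6, a copy of FOXD4 with near-identical relatives on the array, gave 1.18 ± 0.17 after NU7441 by the brightest probeset and -0.06 ± 0.31 by the second (adjusted p = 0.891). The rise was thus absent from the second probeset, and values of the FOXD4 group are uncertain because near-identical copies can share signal. FOXD1 went from 0.83 ± 0.32 (adjusted p = 0.072) to a fall of 0.80 ± 0.22 (adjusted p = 0.0221), and NKX2-2 went from -0.76 to -0.05. With the second probesets in place for these genes, 45 lineage genes passed after NU7441 rather than 47.

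**Figure D4:**
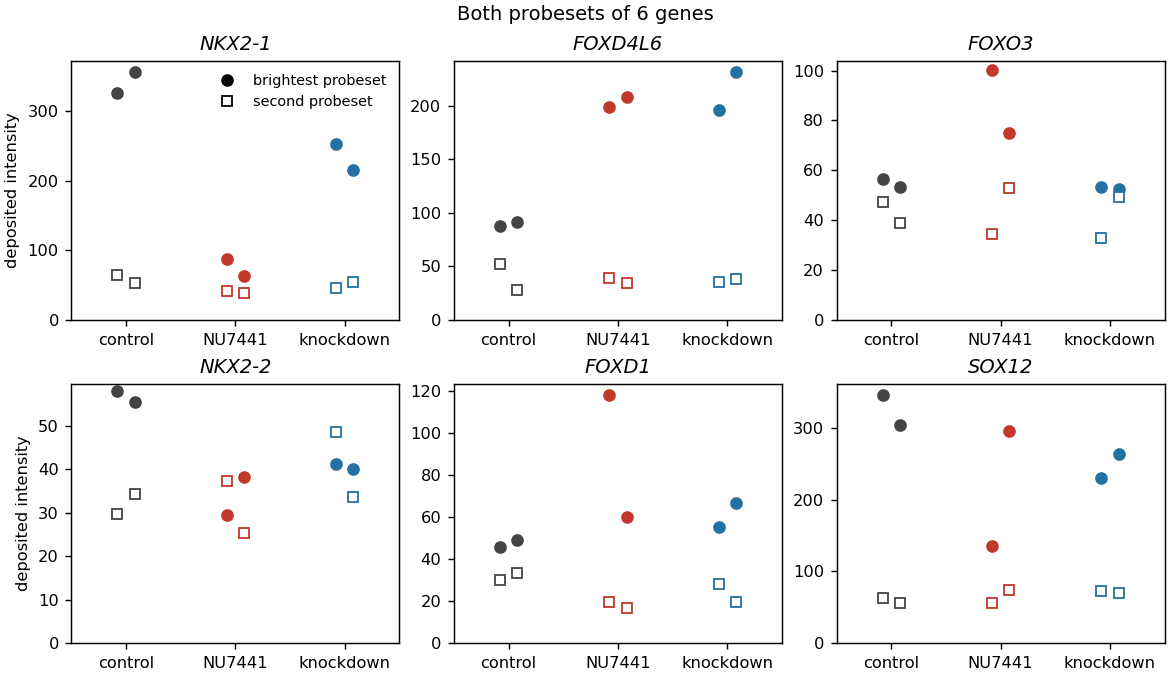
Deposited intensity of the brightest probeset (filled circles) and the second probeset (open squares) of 6 genes on each of the 6 arrays, by group. NKX2-1 falls from 326.4 and 356.4 to 87.9 and 62.8 on the first and lies between 38.1 and 64.7 on the second.

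Knockdown changed few lineage genes against control. FOXD4L6 was higher and HOXB8 lower, where 0.284% and 0.486% of all genes passed in each direction, and 30 lineage genes had an unadjusted p under 0.05. FOXD4L6 gave 1.25 ± 0.17 (adjusted p = 0.0279) by its brightest probeset and -0.07 ± 0.31 by the second. With any 1 control or knockdown array left out, neither call held. When the knockdown and control arrays were fitted without the NU7441 arrays, 25 lineage genes passed, 3 higher and 22 lower. The share of all genes passing in that fit was not taken. The closest to the threshold in the fit of all arrays were FOXD4 (0.81, adjusted p = 0.0716), FOXF2 (-0.78, adjusted p = 0.0738) and HOXD1.

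Set directly against each other, the treatments differed in 10 lineage genes. SOX2, NKX2-1, HOXD1, HOXD10, FOXE3 and FOXH1 were higher in knockdown, where 5.83% of all genes were, and FOXA1, FOXJ3, FOXN3 and HOXB13 were lower, where 2.84% of all genes were. The differences ran from -0.94 for HOXB13 to 2.35 for SOX2. FOXH1 read 39.1 and 41.6 in control, 16.3 and 25.2 after NU7441, and 40.9 and 39.3 after knockdown. Its call and that of FOXJ3 (adjusted p = 0.0463 and 0.046) lay close to the threshold. By its second probeset NKX2-1 differed by 0.33 (adjusted p = 0.406) and did not pass.

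**Figure D5:**
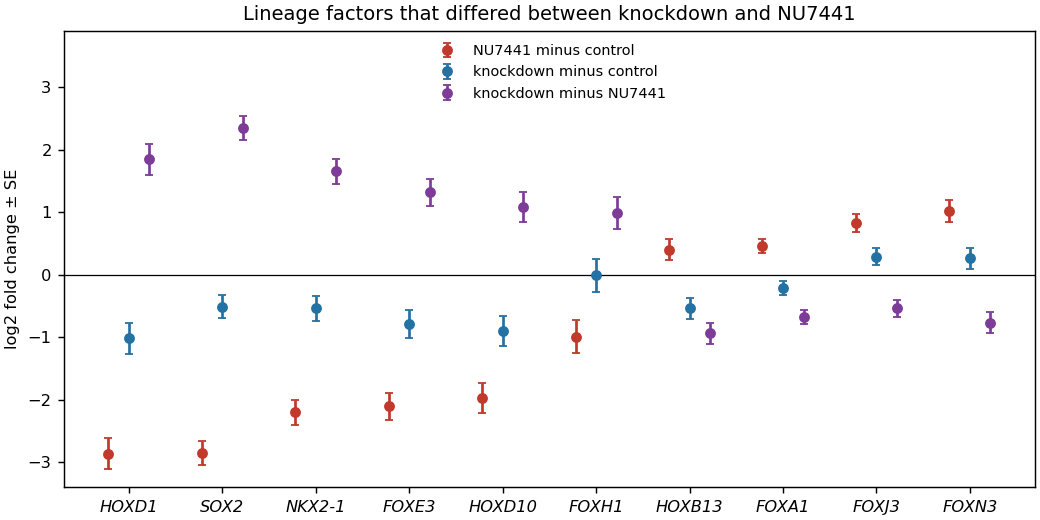
Log2 fold change ± SE (n = 2 arrays per group) of the 10 lineage genes that differed between knockdown and NU7441, for each of the 3 comparisons; values above 0 are higher in the group named first. HOXD1, SOX2, NKX2-1, FOXE3 and HOXD10 are below 0 in both treatments and further below after NU7441, while HOXB13 and FOXA1 lie on opposite sides of 0.

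The calls for NU7441 leaned on having both control arrays, and shares over all genes with 1 array left out were not taken. Fewer lineage genes passed without control replicate 1 and without control replicate 2, while their median log2 fold change was -0.41 and -0.42. Over all genes the median was -0.23 in both fits. SOX2, HOXD1, HOXD10, HOXB8, FOXE3 and NKX2-1 stayed lower and FOXN3 and FOXD4L6 higher in both cases, NKX2-1 and FOXD4L6 by the brightest probesets whose calls the second probesets did not give. More lineage genes passed without NU7441 replicate 1 or 2, where their median was -0.34 and -0.46, beside -0.15 and -0.32 over all genes. Between the treatments more passed without either NU7441 array, and fewer without either knockdown array.

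The genes that act with the lineage factors were counted by list as well. Of 11 listed TALE cofactors, homeodomain partners of HOX proteins, 8 were measured. After NU7441 1 fell and 0 rose, beside 22.4% and 10.8% of all genes. That gene was PBX3 (-0.84 ± 0.27, adjusted p = 0.0381), which did not pass after quantile normalization or median centring, and after centring PKNOX1 passed as higher (0.83). Of 18 measured Polycomb and Trithorax regulators, which repress and maintain HOX clusters, out of 27 listed, 3 rose and 4 fell, or 16.7% and 22.2% beside 10.8% and 22.4% of all genes. The balance turned with scaling, with 4 higher and 5 lower after quantile normalization and 7 higher and 2 lower after median centring. The Polycomb subunit CBX7 read 327.6 and 325.5 in control, 76.7 and 56.7 after NU7441, and 251.7 and 216.0 after knockdown. It fell by 2.31 ± 0.20 (adjusted p = 0.000297), and it stood 1.82 ± 0.20 higher in knockdown than in NU7441 (adjusted p = 0.00205).

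EZH1, a histone methyltransferase of Polycomb, rose by 1.26 ± 0.22 (adjusted p = 0.00371), and KDM6B, which removes the mark EZH1 writes, rose by 1.08 ± 0.24 (adjusted p = 0.0111). EZH2, the proliferation-linked counterpart of EZH1, named after its values were seen, fell by 0.73 ± 0.16 (adjusted p = 0.00847). The EZH2 call was lost after median centring (-0.42, adjusted p = 0.0672). RBBP7 read 35.7 and 228.5 on the NU7441 arrays and did not pass on the deposited scale (adjusted p = 0.0585). It passed as lower after quantile normalization (-1.68, adjusted p = 0.0455) and not after median centring (adjusted p = 0.0963). Of 11 measured pluripotency partners of SOX2 out of 12 listed, 3 fell and 0 rose, beside 22.4% and 10.8% of all genes. POU5F1 (-0.89) and ESRRB (-0.98) were among the 3. After quantile normalization 0 passed in limma, with 2 at an unadjusted p under 0.05. After knockdown 0 genes of these 3 lists passed in limma, with 0, 4 and 2 at an unadjusted p under 0.05.

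Among 11 measured neural and neuroendocrine lineage factors out of 12 listed, 5 fell after NU7441 and 0 rose, beside 22.4% and 10.8% of all genes. Of the 5, NKX2-1 and NKX2-2 did not pass in limma by their second probesets (adjusted p = 0.105 and 0.897). After quantile normalization 2 were lower, SOX2 and NKX2-1 (by its brightest probeset), beside 13.8% of all genes. Of the 7 neuroendocrine markers measured out of 10 listed, 1 rose and 3 fell on the deposited scale, beside the same 10.8% and 22.4%. The 1 that rose was DLL3, a Notch ligand of neuroendocrine tumours (0.48 ± 0.16, adjusted p = 0.0477). After quantile normalization 0 passed in limma, with 2 at an unadjusted p under 0.05, beside 14.3% higher and 13.8% lower of all genes. After median centring only DLL3 passed, as higher (0.80, adjusted p = 0.00765). The summed intensity of the 7 markers was 383 to 394 in control, 380 to 424 after NU7441 and 415 to 420 after knockdown. DLL3 accounted for 190.3 to 296.5 of those sums.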

How the data were processed

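Total RNA of 6 C4-2 cultures was amplified and labelled with biotin, per the labels' protocols, and the authors deposited 1 linear intensity for each probeset of each array. For background correction, normalization and summarisation the sources used here give nothing. Of 44629 probesets 15835 had 1 gene symbol, and the brightest stood for each of 14812 genes. Log2 values were fitted with limma 3.58.1 in R 4.3.3, over all 6 arrays with 1 mean per group, 3 residual degrees of freedom and a mean-variance trend. P-values are two-sided, were adjusted by Benjamini-Hochberg over all genes, and measure the spread between the cultures labelled biological replicates. With 2 arrays per group precision is limited by their number. The procedure was tested on simulated data. The members and lists were chosen with earlier results of these data known. Lineage genes past the threshold, in a lineage list or among the 10 brightest were eligible for naming. So were other genes among the 2 highest or 2 lowest of their list against control. The text names some of these and leaves out others, FOXI1, CAT and INSR among them. It also names some genes outside the rule for comparison. Alternatives were quantile normalization, median centring, removal of the floor of 16 (adding 1 before log2), dim genes left out, no trend, the compared groups alone, a replicate block, the mean of probesets and each array left out. Own-strand probesets, and quantile normalization with dim genes left out, were added after seeing the data.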

Additional observations from a re-analysis of the deposited data

How the results depend on the processing

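With 2 arrays per group, counts of calls moved with the setting. After NU7441 the 47 calls became 30 with quantile normalization, 17 with genes below the median left out and 18 with both, where 39 lineage genes remained to be tested, and 8 to 70 with 1 array left out. The 2 knockdown calls became 1 without dim genes, with a replicate block, with the mean of probesets or with own-strand probesets, 0 without the trend or with the floor removed, 25 with the compared groups alone, and 0 with any 1 array left out. Between the treatments 10 calls became 6 with the compared groups alone and 0 to 47 with 1 array left out. With its own-strand probeset FOXD4L6 lost both rises, at -0.06 for NU7441 and -0.07 for knockdown. With 1 array left out, GATA2 after NU7441 ran from -0.45 to 0.43 and FOXO1 between the treatments from -0.75 to 0.88, both extremes without an NU7441 array. The causes were not tested. Same-numbered replicates did not deviate together (correlations of -0.00516, -0.0126 and -0.0676), and a replicate block left 37, 1 and 8 calls for NU7441, knockdown and between the treatments.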

Other observations

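Non-coding genes of the same loci were looked at after their values were seen, 10 in all. HOXB-AS3, a long non-coding RNA of the HOXB cluster, read 106.6 and 97.1 in control, 40.6 and 37.5 after NU7441, and 71.4 and 57.0 after knockdown. The groups did not overlap, and the log2 fold change after NU7441 was -1.38 ± 0.23 (limma, adjusted p = 0.00341), or -1.20 after quantile normalization (adjusted p = 0.00464). After knockdown it was -0.67 ± 0.23 (adjusted p = 0.162). HAGLR, a long non-coding RNA of the HOXD cluster, read 32.2 and 29.6 in control and 17.4 and 21.9 after NU7441 (-0.66 ± 0.20, adjusted p = 0.0307), and did not pass after quantile normalization (adjusted p = 0.198). SOX2-OT, the transcript that contains SOX2 in an intron, lay near the floor on all arrays, at most 22.7, and did not pass after NU7441 (-0.39, adjusted p = 0.0589). HOTAIR, HOTTIP, HOXD-AS2, FOXD2-AS1, FOXN3-AS1, FOXN3-AS2 and LHX4-AS1 did not pass in any of the 3 comparisons.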
